A study of Homo sapiens with 6 samples.

Results

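The genes described here are the matrix metalloproteinases MMP1, MMP2, MMP3, MMP9 and MMP14, the tissue inhibitors of metalloproteinases TIMP1, TIMP2 and TIMP3, and the related protease ADAMTS1, as measured in AC16 cells with and without fine airborne particles. They were chosen by name, and each was represented by the transcript cluster (the array's unit for a gene) that carries its symbol alone and has the highest mean over the arrays. Of the 9 listed genes, 8 had such a cluster, out of 22465 genes in all. TIMP2 was annotated only together with CEP295NL on a shared cluster, so its level could not be assigned and is not reported. Each of the 8 genes had 1 cluster of its own.

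RNA came from AC16, an established human myocardial cell line that was made by fusing adult ventricular heart cells with a transformed fibroblast line. Per the labels, 3 samples were cells exposed for 24 h to PM2.5, the fine fraction of airborne particulate matter, at 50 µg/mL, and 3 were control cells, which the labels describe no further. Both groups are of the same line, so neither holds the other cell types of a heart. The titles call the samples biological replicates without saying whether they were separate cultures, so p-values below rest on the variation among these 6 samples, which may be technical in part.

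Matrix metalloproteinases are zinc-dependent enzymes that cut collagens, proteoglycans and other proteins outside the cell. Most are made as inactive precursors, and TIMPs block the active enzymes by binding their catalytic site. In the heart the balance of the families is known for its part in the turnover of the collagen network after injury and in fibrosis. MMP2 and MMP9 are the gelatinases, MMP1 is an interstitial collagenase, MMP3 is a stromelysin that also activates other precursors, and MMP14 is anchored in the cell membrane, where it activates the MMP2 precursor together with TIMP2. TIMP3 differs from the other inhibitors in binding to the matrix itself, and it also inhibits ADAM and ADAMTS enzymes. ADAMTS1 is a secreted protease that cuts aggrecan and versican.

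All values are log2 RMA expression as deposited, where a difference of 1 is a doubling. The arrays fell into 2 sets, which the labels do not name, by the mean of 8 spike-in control probe sets, RNAs added from outside the cells. The high spike-in set, with means of 10.73 to 10.90, held control replicates 1 and 2 with PM2.5 replicate 1. The low spike-in set, with means of 10.17 to 10.27, held control replicate 3 with PM2.5 replicates 2 and 3. Treatment differences of MMP2, MMP14 and TIMP3 are therefore also given within each set and from a fit in which the array set is a block (the blocked fit). A gene is called above background where it exceeded 5.66, the highest reading of any of the 23 background probe sets, on 3 or more arrays, as 4150 genes did. Arrays carry no read depth, and their number limits the precision.

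Transcripts of the gelatinase MMP2, its membrane-bound activator MMP14 and the matrix-bound inhibitor TIMP3 were above background on all 6 arrays, whereas MMP1, MMP9, TIMP1 and ADAMTS1 did not exceed it on any array and MMP3 exceeded it on 2. None of the 8 genes differed between PM2.5 and control cells in limma's test (adjusted p = 1 for each), and 0 of them reached an unadjusted p under 0.05. PM2.5 and control arrays overlapped for every one of the 8. Over all genes tested limma called 0 of 22465 (0%), and 473 (2.11%) had an unadjusted p under 0.05. The blocked fit likewise called 0 of the 8 genes and 0 genes in all, and 0 of the 8 had an unadjusted p under 0.05, which 5.76% of all genes did. The groups did not overlap for 5.31% of all genes and for 3.28% of those above background. MMP2, MMP14, MMP3 and TIMP3 instead separated without overlap by array set, with higher levels on all 3 arrays of the low spike-in set, a separation that 40.3% of all genes and 64.0% of those above background also showed. In RNA from a whole culture, fewer cells that carry a transcript and less of it per cell cannot be told apart.

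**Figure D1:**
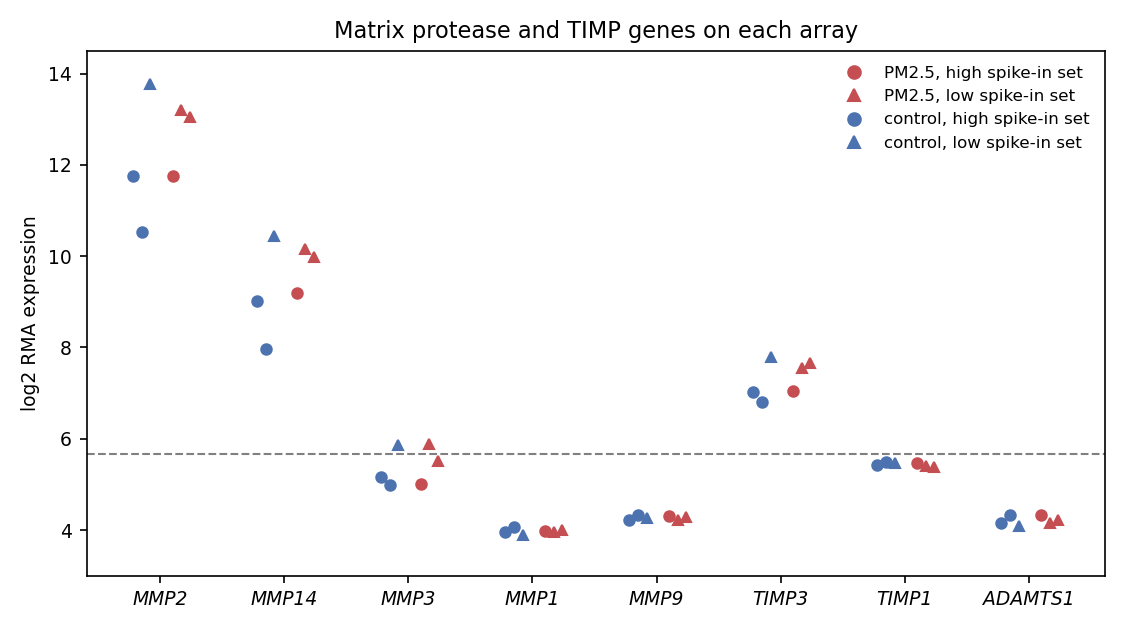
Log2 RMA expression (vertical axis) of the 8 genes on each of the 6 arrays. Colours give the group, circles and triangles the high and low spike-in set, and the dashed line the background limit of 5.66. MMP2, MMP14 and TIMP3 lie above the line on all arrays, and their triangles lie above their circles whatever the colour.

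MMP2, known as gelatinase A, read 11.75, 13.20 and 13.05 on PM2.5 replicates 1, 2 and 3, and 11.76, 10.53 and 13.77 on control replicates 1, 2 and 3. Both the lowest and the highest array were controls, and PM2.5 replicate 1 and control replicate 1 were almost equal. The PM2.5 mean was 12.67 ± 0.797 (SD, n = 3) and the control mean 12.02 ± 1.63 (SD, n = 3). In limma the difference was 0.64 with a 95% interval from -1.45 to 2.74, that is from 0.365-fold to 6.69-fold (adjusted p = 1). In the blocked fit it was -0.02 (interval -1.12 to 1.08, limma adjusted p = 1). Among the high spike-in arrays MMP2 was 0.60 higher after PM2.5, and among the low spike-in arrays it was -0.64 on the same scale, each without an error because 1 array of one group stood against 2 of the other. Without control replicate 2 the difference was -0.10, and without control replicate 3 it was 1.52, and of the 6 arrays only control replicate 2 turned the direction when left out. Leaving out PM2.5 replicate 1 or 2 gave 1.10 or 0.38. Weighting the arrays gave 1.19 (interval 0.18 to 2.19, limma unadjusted p = 0.0281 and adjusted p = 0.138), with the least weight on control replicate 3. That array was the only control of the low spike-in set. In the weighted fit 6517 of 22465 genes had an unadjusted p under 0.05.

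The spread of MMP2 among the controls was larger than that of most transcripts. Only 0.795% of the 4150 genes above background had a control SD at least as large, against a median SD of 0.292. Among PM2.5 arrays the median SD of those genes was lower, at 0.173. Part of it lay inside an array set: control replicates 1 and 2 belonged to the same set, with spike-in means of 10.90 and 10.89, and still differed by 1.23.

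MMP14, also called MT1-MMP, read 9.20, 10.15 and 9.97 on PM2.5 replicates 1, 2 and 3, and 9.02, 7.96 and 10.44 on control replicates 1, 2 and 3. The controls again held both extremes, in the same 2 arrays as for MMP2. Group means were 9.77 ± 0.507 (SD, n = 3) after PM2.5 and 9.14 ± 1.25 (SD, n = 3) in controls. The limma difference was 0.63 (95% interval -0.96 to 2.22, adjusted p = 1), and 0.16 in the blocked fit (interval -0.82 to 1.14, adjusted p = 0.985). It was 0.71 within the high and -0.38 within the low spike-in arrays. Leaving out control replicate 2 gave 0.04 and leaving out control replicate 3 gave 1.28. With weighted arrays the difference was 0.93 (interval 0.17 to 1.70, limma unadjusted p = 0.0246 and adjusted p = 0.133). An unadjusted p under 0.05 was reached by 6517 of 22465 genes in that fit.

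TIMP3 varied less than the 2 proteases. It read 7.04, 7.54 and 7.65 on PM2.5 replicates 1 to 3 and 7.01, 6.80 and 7.80 on control replicates 1 to 3, so that controls once more gave the lowest and the highest value. Its means were 7.41 ± 0.329 (SD, n = 3) after PM2.5 and 7.20 ± 0.526 (SD, n = 3) in controls. The difference in limma was 0.21 (95% interval -0.55 to 0.97, adjusted p = 1). The blocked fit gave -0.03 (interval -0.35 to 0.29, adjusted p = 0.995), which bounds the difference between 0.783-fold and 1.22-fold. The differences were 0.13 within the high set and -0.20 within the low set. Leaving out control replicate 2 or 3 moved the value to 0.0062 or 0.51. With weighted arrays it was 0.52 (interval 0.12 to 0.91, limma unadjusted p = 0.0178 and adjusted p = 0.122), in a fit where 6517 of 22465 genes had an unadjusted p under 0.05.

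Sequence before the transcription start was held for MMP14 and TIMP3, an activating protease and an inhibitor whose transcripts separated together by array set. It was also held for TIMP1, an inhibitor under the common background limit that did not separate by set. The 250 bases before each start are shown from the RefSeq tables of build GRCh38.p14, plus strand, 5′ to 3′, at chr14:22836335-22836584 for MMP14, chr22:32801455-32801704 for TIMP3 and chrX:47582186-47582435 for TIMP1. Capitals mark GC boxes (GGGCGG, the element bound by SP1) and CCAAT boxes (CCAAT), each on either strand.
MMP14: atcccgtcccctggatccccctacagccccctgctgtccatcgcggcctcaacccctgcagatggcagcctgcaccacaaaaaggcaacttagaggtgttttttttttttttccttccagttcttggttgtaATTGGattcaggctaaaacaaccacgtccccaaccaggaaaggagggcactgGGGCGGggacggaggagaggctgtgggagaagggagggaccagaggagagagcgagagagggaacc
TIMP3: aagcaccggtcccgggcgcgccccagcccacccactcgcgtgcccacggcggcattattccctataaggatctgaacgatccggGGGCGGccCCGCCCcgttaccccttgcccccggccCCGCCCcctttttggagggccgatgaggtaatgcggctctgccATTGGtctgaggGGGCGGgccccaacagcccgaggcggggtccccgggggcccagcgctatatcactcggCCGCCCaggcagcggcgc
TIMP1: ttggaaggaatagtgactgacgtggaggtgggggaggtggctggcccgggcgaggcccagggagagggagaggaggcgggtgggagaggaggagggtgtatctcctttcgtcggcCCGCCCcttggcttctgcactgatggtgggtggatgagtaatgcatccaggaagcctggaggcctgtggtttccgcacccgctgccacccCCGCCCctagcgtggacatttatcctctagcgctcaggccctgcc
MMP14 held 1 GC box and 1 CCAAT box, TIMP3 held 5 GC boxes and 1 CCAAT box, and TIMP1 held 2 GC boxes and no CCAAT box. A GC box occurred in 42.6% and a CCAAT box in 32.0% of 35116 promoter windows of the same length. The TATA box (TATAAA, in 10.7% of windows) and the AP-1 motif (TGANTCA, in 6.57%) were searched on both strands, and these letters were not in any of the 3 windows. Sites that differ from these letters were not searched for, so their absence is not shown. No motif overlapped another. Bases G and C made up 56.8% of the MMP14 window, 72.4% of that of TIMP3 and 64.8% of that of TIMP1, and the median over all windows was 58.0%.

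MMP3, stromelysin 1, lay at the edge of detection. It read 5.01, 5.88 and 5.51 on PM2.5 replicates 1 to 3 and 5.16, 4.99 and 5.86 on control replicates 1 to 3. It exceeded the common background limit on PM2.5 replicate 2 and control replicate 3 alone, and the highest background probe set of the same array on 4 of 6 arrays. The means were 5.47 ± 0.437 (SD, n = 3) after PM2.5 and 5.34 ± 0.464 (SD, n = 3) in controls. Its limma difference was 0.13 (95% interval -0.61 to 0.87, adjusted p = 1), and -0.11 in the blocked fit (interval -0.42 to 0.19, adjusted p = 0.951). Without PM2.5 replicate 2 it was -0.07, without control replicate 2 it was -0.04, and without control replicate 3 it was 0.40.

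MMP1 and MMP9 stayed within background on every array, so their differences bound the signal of the probes and do not show that the transcripts were absent. MMP1, which opens the triple helix of fibrillar collagen and lies on chromosome 11 like MMP3, ranged from 3.90 on control replicate 3 to 4.06 on control replicate 2. Its difference was 0.01 (95% interval -0.10 to 0.13, limma adjusted p = 1). MMP9, gelatinase B, a product of leukocytes in particular, ranged from 4.22 to 4.32, with both ends in controls, and its difference was 0.0075 (interval -0.10 to 0.12, limma adjusted p = 1). Neither gene ordered the arrays by spike-in set.

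TIMP1, a soluble inhibitor of most MMPs, read 5.47, 5.41 and 5.38 on PM2.5 replicates 1 to 3 and 5.42, 5.48 and 5.47 on control replicates 1 to 3. It was the single gene of the 8 with a lower mean after PM2.5, at 5.42 ± 0.0484 (SD, n = 3) against 5.46 ± 0.0311 (SD, n = 3), and the groups overlapped. The difference of -0.04 had a 95% interval from -0.19 to 0.12 (limma adjusted p = 1). Although it stayed under the common limit, TIMP1 exceeded the highest background probe set of its own array on 5 of 6 arrays, control replicate 1 being the exception. ADAMTS1 ranged from 4.09 on control replicate 3 to 4.33 on PM2.5 replicate 1, within background, with a difference of 0.04 (interval -0.15 to 0.23, limma adjusted p = 1).

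**Figure D2:**
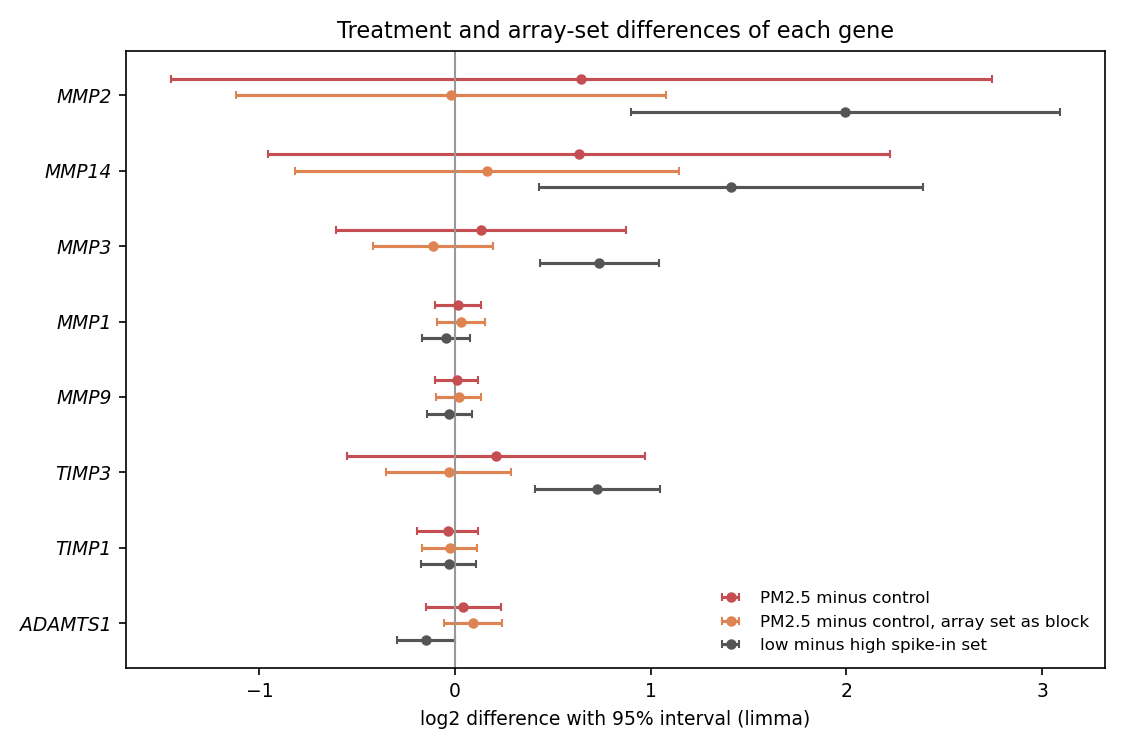
Log2 differences (horizontal axis) with 95% intervals from limma for PM2.5 minus control, the same from the blocked fit, and the low minus the high spike-in set with the group in the fit. The intervals of both treatment fits include 0 for all 8 genes, and those of the array-set difference lie above 0 for MMP2, MMP14, MMP3 and TIMP3.

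The difference between the array sets was larger than that between the groups in MMP2, MMP14, MMP3 and TIMP3. With the group in the fit, MMP2 was 2.00 higher in the low spike-in set (95% interval 0.90 to 3.09, or 3.99-fold), MMP14 1.41 higher (0.43 to 2.39, 2.66-fold), MMP3 0.74 higher (0.43 to 1.04, 1.67-fold) and TIMP3 0.73 higher (0.41 to 1.05, 1.65-fold). Of these, MMP3 and TIMP3 passed limma's test (adjusted p = 0.0352 and 0.0380), and MMP2 and MMP14 did not (adjusted p = 0.0554 and 0.0860). Of all genes 8.06% were called in either direction and 5.40% as higher in the low set, and of those above background 20.4% were called higher. These shares depended on each array, since the 1810 calls over all genes became 1 to 827 when 1 array was left out. For MMP1, MMP9, TIMP1 and ADAMTS1 the values were -0.05, -0.03, -0.03 and -0.15, with none past the test, and the first 3 turned positive after centring the arrays.

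TIMP3 lost its call without any 1 of the 6 arrays (limma adjusted p between 0.0596 and 0.277), and MMP3 kept it only without PM2.5 replicate 3 (adjusted p between 0.0427 and 0.276), whereas the differences themselves stayed between 0.56 and 0.89 for TIMP3 and between 0.67 and 0.82 for MMP3. MMP2 passed without control replicate 2 (adjusted p = 0.0442). In size, the differences of MMP2 and MMP14 were among the larger ones: 0.482% and 2.80% of the genes above background had as large a difference in that direction, against 17.1% for TIMP3. The median over all genes above background was 0.17. Separation by set was common: 64.0% of those genes and 40.3% of all genes showed it, beside 4 of the 8 genes described here. What distinguished the sets beyond their spike-in signal is not given in the labels, and its part in these levels was not tested.

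**Figure D3:**
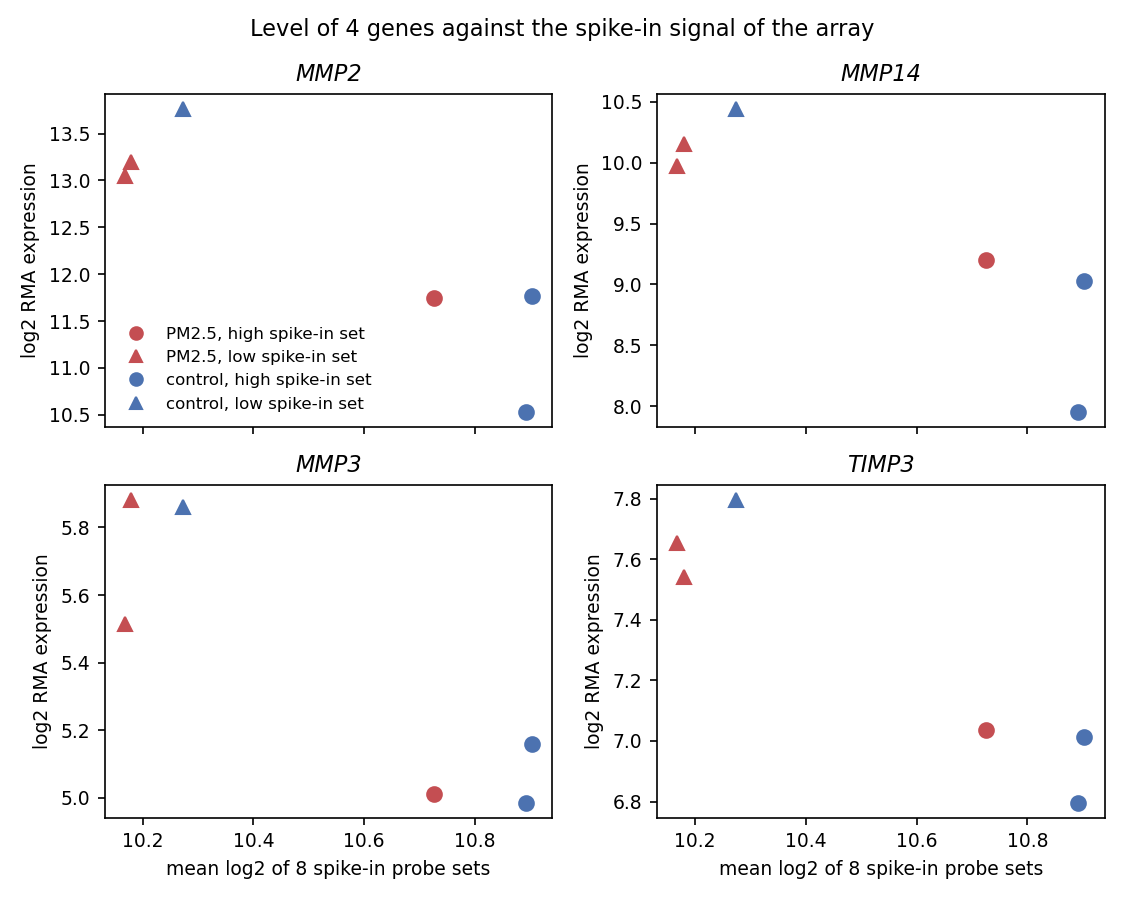
Log2 RMA expression (vertical axes) of MMP2, MMP14, MMP3 and TIMP3 against the mean log2 signal of 8 spike-in probe sets (horizontal axes), 1 point for each array. The 3 low spike-in arrays lie above the 3 high spike-in arrays in each panel, and control replicate 2 lies well below control replicate 1 for MMP2 and MMP14 at the same spike-in signal.

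Differences between a protease and an inhibitor on the same array show whether a pair changed unequally. Because they compare different probes, their absolute size has no meaning as a ratio of transcripts, and they are given without a test. MMP14 minus TIMP3 was 2.16, 2.61 and 2.32 on PM2.5 replicates 1 to 3 and 2.01, 1.16 and 2.65 on control replicates 1 to 3. The groups overlapped, and the means of 2.36 ± 0.227 (SD, n = 3) and 1.94 ± 0.747 (SD, n = 3) were closer than the spread of the controls. This difference too went with the array set, at 1.78 in the high and 2.53 in the low spike-in set, so the protease differed more between sets than the inhibitor did.

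MMP2 minus MMP14, the precursor against its activator, had means of 2.89 ± 0.294 (SD, n = 3) after PM2.5 and 2.88 ± 0.390 (SD, n = 3) in controls. It differed by 0.01 between groups and by 0.52 between the array sets. Inside the sets, PM2.5 minus control was -0.11 on the high and -0.26 on the low spike-in arrays, so it was lower after PM2.5 in both. ADAMTS1 minus TIMP3 was -3.18 ± 0.408 (SD, n = 3) after PM2.5 and -3.01 ± 0.632 (SD, n = 3) in controls, which follows TIMP3 because ADAMTS1 was within background. MMP1, MMP3 and MMP9 minus TIMP1 differed between groups by 0.05, 0.17 and 0.05, with these genes under the background limit on most or all arrays. MMP3 minus TIMP1 differed by 0.74 between the array sets, and inside them its group difference was negative (-0.08 in the high and -0.09 in the low set). Inside the high and low sets it was -0.04 and 0.16 for MMP1 minus TIMP1, and 0.03 and 0.06 for MMP9 minus TIMP1.

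The transcripts whose levels over the 6 arrays were most like those of MMP2, among genes above background, were MRPS34, RPN1 and NID2 (Pearson's r of 0.9993, 0.9992 and 0.9992, n = 6 arrays). They encode a mitochondrial ribosomal protein, a subunit of the oligosaccharyltransferase and the basement membrane protein nidogen 2. For MMP14 they were H6PD, XRCC6 and GNA12 (r of 0.9985, 0.9982 and 0.9982), and for TIMP3 CDKN2AIPNL, CREBBP and HUWE1 (r of 0.9999, 0.9997 and 0.9981). Such likeness was common: 13.5% of the genes above background had an r of at least 0.95 with MMP2, 9.50% with MMP14 and 14.8% with TIMP3. The 6 points fall into the 2 array sets, and the 9 named genes were all higher in the low spike-in set, by 0.47 to 1.34. The values describe these arrays and carry no p.

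Among the other members of the metalloproteinase family, 18 genes with TIMP4 included, 0 were above background and limma called 0, with 0 at an unadjusted p under 0.05. MMP19 came closest, at 5.31 ± 0.0675 (SD, n = 3) after PM2.5 and 5.28 ± 0.402 (SD, n = 3) in controls, and exceeded the background probe sets of its own array on 5 arrays. MMP19 was singled out after its values were seen. The list had a median difference of 0.02, against -0.0099 over all 22465 genes, with 12 genes higher and 6 lower.

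Of 26 other ADAM and ADAMTS proteases with a cluster of their own, 3 were above background and 0 were called (0 at an unadjusted p under 0.05), and the median difference was -0.01. ADAM17, the sheddase that frees tumour necrosis factor and a TIMP3 target, read 5.53 ± 0.258 (SD, n = 3) after PM2.5 and 5.72 ± 0.593 (SD, n = 3) in controls. Its difference was -0.19, and -0.44 in the blocked fit (limma adjusted p = 1 and 0.862), with -0.15 inside the high set and -0.73 inside the low set. In the blocked fit its interval was -0.78 to -0.09 and its limma unadjusted p 0.0229, where 5.76% of all genes had one under 0.05. The counts given for this and the other lists are from the fit without the block. ADAM9 read 7.06 ± 0.347 against 7.10 ± 0.583, and ADAM15 read 7.08 ± 0.0646 against 6.95 ± 0.189 (SD, n = 3 each). Their differences were -0.04 and 0.13, and -0.29 and 0.13 in the blocked fit.

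Activators and cell-surface regulators comprised 23 measured genes, 12 of them above background, and limma called 0, again with 0 at an unadjusted p under 0.05. LRP1, the receptor that clears MMP and TIMP complexes, read 6.84 ± 0.259 after PM2.5 and 6.51 ± 0.540 in controls (SD, n = 3 each). BSG, basigin, known as an inducer of metalloproteinases, read 9.33 ± 0.197 against 9.06 ± 0.311. The lysosomal protease gene CTSB read 8.78 ± 0.362 against 8.50 ± 0.506, and PLAUR, the urokinase receptor, 5.73 ± 0.0630 against 5.85 ± 0.271. All 4 overlapped between groups. In the order given, the differences were 0.34, 0.26, 0.28 and -0.12, and 0.15, 0.13, 0.03 and -0.21 in the blocked fit. The median difference was 0.05 over the 23 genes and 0.18 over the 12 above background, where the median of all 4150 genes was 0.01. Of the 12, 8 separated by array set, all higher in the low set, where 64.0% of the genes above background separated in either direction. Their median set difference was 0.48, against 0.17 over the 4150. Group and array set were partly mixed, so the 0.18 does not stand for treatment alone.

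Substrates of these enzymes include collagens, fibronectin, laminins and proteoglycans. Of 27 measured matrix substrates, 13 were above background, 0 were called by limma and 1, BGN, had an unadjusted p under 0.05. BGN, the proteoglycan biglycan, read 11.45, 11.76 and 11.94 on PM2.5 replicates 1 to 3 and 10.76, 10.17 and 11.50 on control replicates 1 to 3. Control replicate 3 lay above PM2.5 replicate 1, so the groups overlapped. The difference was 0.91 (limma adjusted p = 1), 0.67 in the blocked fit, 0.98 inside the high set and 0.35 inside the low set. FN1, fibronectin, read 9.51 ± 0.646 against 8.84 ± 1.46, COL6A3 10.54 ± 0.690 against 9.83 ± 1.56 and COL1A1 7.66 ± 0.520 against 7.32 ± 0.938 (SD, n = 3 each). Like MMP2 and MMP14, these were wider among controls than among PM2.5 arrays, and in the blocked fit their differences were 0.09, 0.11 and -0.06. Wider controls were general: the median SD of genes above background was 0.292 among controls and 0.173 among PM2.5 arrays.

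Of the 13 substrates above background, 12 separated by array set without overlap, all higher in the low set like MMP2, where 64.0% of the genes above background separated in either direction. SDC1, the proteoglycan syndecan 1, was the exception, with a difference of 0.0054 between the sets, and was singled out after its values were seen. The median set difference of the 13 was 1.17, and limma called 5 higher in the low set and 0 lower, against 20.4% of the genes above background called higher, a share that rests on all 6 arrays being fitted.

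Transcriptional regulators of MMP genes, 26 in all, had 14 members above background, 0 called by limma and 0 at an unadjusted p under 0.05, with 13 higher and 13 lower. JUN, a subunit of the AP-1 factor that drives several MMP promoters, read 5.67 ± 0.0508 against 5.79 ± 0.170, and SP1, which binds GC boxes, 5.75 ± 0.245 against 5.65 ± 0.230. SMAD3 and SMAD4, which carry TGF-beta signals, read 6.63 ± 0.0448 against 6.80 ± 0.245 and 5.85 ± 0.153 against 5.94 ± 0.285 (SD, n = 3 each). The groups overlapped for all 4. JUN differed by -0.12, SP1 by 0.10, SMAD3 by -0.17 and SMAD4 by -0.09, and in the blocked fit by -0.13, -0.01, -0.26 and -0.21 in that order, so that SP1 turned direction.

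**Figure D4:**
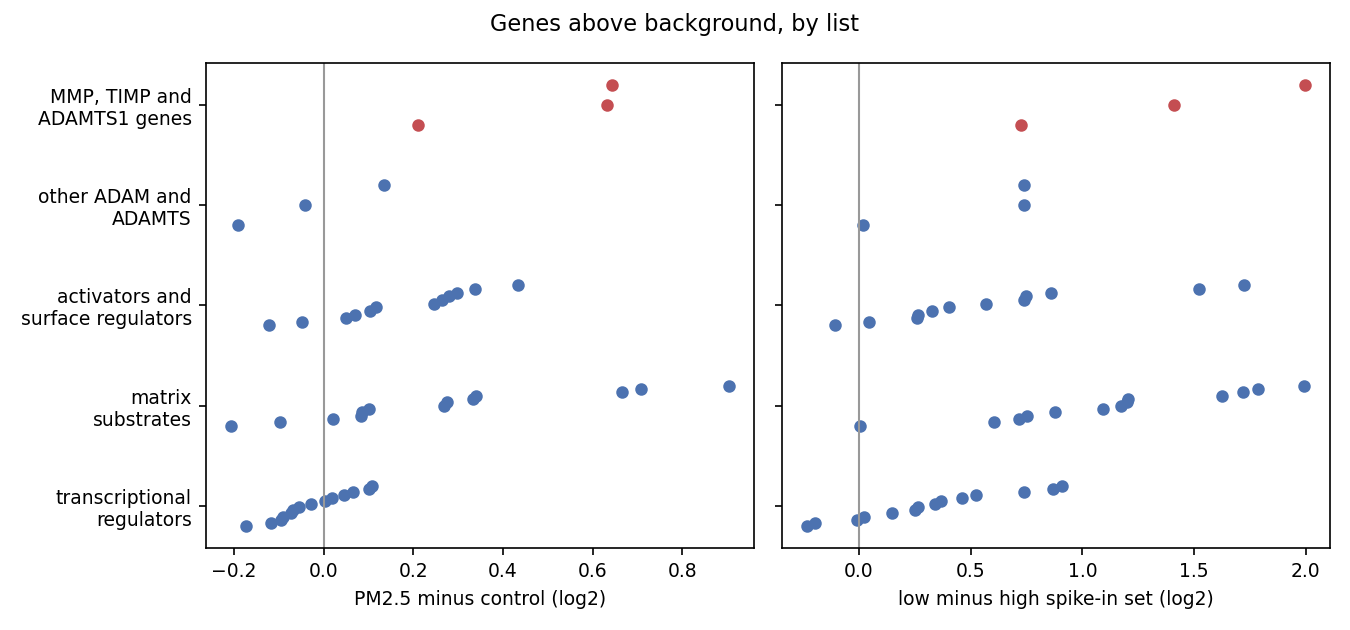
Log2 differences of genes above background, 1 point for each gene, for PM2.5 minus control (left) and the low minus the high spike-in set (right). The 3 red points are TIMP3, MMP14 and MMP2, from left to right in each panel. Matrix substrates spread as widely as these in both panels, and BGN is the rightmost point on the left.

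Markers of cell types were read beside the label of the cells. Over all genes, 4150 of 22465 were above background. Of 11 measured cardiomyocyte genes 1, MYL2, was above background. MYH6, MYH7, MYL7, TNNI3, ACTN2, ACTC1, RYR2, TTN, NPPA and NPPB were not. ACTC1 exceeded the highest background probe set of its own array on 5 of 6 arrays. Above background lay 2 of 9 fibroblast genes (COL1A1 and COL1A2), 2 of 6 smooth muscle genes, 1 of 8 macrophage and leukocyte genes (CD68) and 0 of 8 endothelial genes. The mean level of the fibroblast list was 4.64 to 4.82 on PM2.5 arrays and 4.56 to 4.81 on controls, and that of the leukocyte list 4.71 to 4.80 and 4.64 to 4.76, so neither separated the groups. The leukocyte gene PTPRC was within background on all arrays, as was MMP9.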

How the data were processed

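RNA of 6 samples of AC16 cells was measured on Affymetrix human transcriptome arrays. The deposited values are log2 expression, and the submitters' processing notes name RMA; the software version and genome build are not given in the sources used here. From 70523 rows, the 23781 transcript clusters with 1 gene symbol in the platform annotation were used, and the cluster with the highest mean stood for each of 22465 genes. Differences were tested over all genes with limma 3.58.1 in R 4.3.3 (two-sided, variance trend on intensity, Benjamini-Hochberg, threshold 0.05), without a block. The array sets were split at the widest gap in the mean spike-in signal and compared with the group in the fit. The fits were run on simulated arrays with independent noise and changes in 200 genes larger than any group difference given here. Those runs do not show the power for differences of the size seen.

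Alternatives were the replicate number or array set as a block, centring, quantile normalization, no trend, filters on dim genes, averaged clusters, weighted arrays and each array left out. Text names all listed genes, up to 4 genes of each pathway list with the lowest p above background, and the 3 genes most like each listed gene. The genes, lists and array sets were chosen with earlier results of these data known.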

Additional observations from a re-analysis of the deposited data

How the results depend on the processing

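limma called 0 genes between PM2.5 and control in all 15 alternatives, including each array left out, with 35 (genes above background) to 6517 (array weights) at an unadjusted p under 0.05. Of 114 alternative values of the 8 genes for that comparison 0 passed, and 11 turned direction. Array weights (control replicate 1 at 6.03, control replicate 3 at 0.226) gave 1.19 for MMP2, 0.39 for MMP3 and 0.52 for TIMP3, each over 1.5 times its first value, with unadjusted p under 0.05 for MMP2, MMP14 and TIMP3. MMP2 and MMP14 also had an unadjusted p under 0.05 (0.0492 and 0.0341, limma adjusted p = 0.537 each) without control replicate 3. In that setting 2045 of 22465 genes had such a p. The controls then left were both of the high spike-in set, so group and array set were partly mixed. The blocked fit turned the direction of MMP2 (-0.021), MMP3 (-0.11) and TIMP3 (-0.033) from positive to negative. Leaving out 1 array gave ranges of -0.10 to 1.52 for MMP2, -0.074 to 0.40 for MMP3, -0.018 to 0.033 for MMP9, -0.020 to 0.059 for MMP1 and -0.0078 to 0.11 for ADAMTS1. MMP14 and TIMP1 kept their direction throughout. Between the array sets 1810 genes were called, 1 to 827 when 1 array was left out (1 without control replicate 3, 4 without PM2.5 replicate 1, 26 without PM2.5 replicate 2, 74 without control replicate 1, 496 without control replicate 2 and 827 without PM2.5 replicate 3), where fewer arrays were fitted. Centring moved the split of these calls from 1214 higher and 596 lower to 1969 and 502. The array-set difference turned direction for MMP1 (0.011), MMP9 (0.030) and TIMP1 (0.026) after centring, and for MMP1 (0.032) and MMP9 (0.027) after quantile normalization. Without 1 array it ranged from -0.081 to 0.014 for TIMP1 and from -0.10 to 0.0047 for MMP1. TIMP3 lost its array-set call after quantile normalization (0.45), and MMP2 passed after centring, quantile normalization and among genes above background (2.05, 2.33 and 2.00), MMP14 in the last alone (1.41). The cause was not tested.

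The replicate number as a block also called 0 genes, with 594 at an unadjusted p under 0.05. Deviations of same-numbered arrays from their group means correlated at 0.779, -0.654 and 0.773. The positive values came from replicate numbers whose arrays shared a spike-in set, and the negative value from the number whose arrays did not. Pairing by number and array set cannot be told apart in these correlations, so they do not settle whether the numbers paired the samples. Leaving out an array leaves 2 in its group.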
